A study of Mus musculus and Rattus norvegicus with 6 samples.

Results

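The miRNAs miR-132 and miR-212 are cut from 2 neighbouring hairpins of 1 transcript, and each hairpin gives a 5p and a 3p arm. Members were chosen by name, as every arm of miR-132 or miR-212, and the rule itself uses no measured value, although the pair was proposed with earlier results of these data known. The rule found 4 names, mmu-miR-132-5p, mmu-miR-132-3p, mmu-miR-212-5p and mmu-miR-212-3p, among 1915 names of the mouse table, and the same 4 with the prefix rno among 764 names of the rat table. The species prefix is left out from here on. Small RNA had been sequenced from retinas at an age of 9 weeks, in 3 libraries of wild-type mice (strain C57BL/6) and 3 libraries of wild-type rats (strain Sprague Dawley). The labels name no treatment and no modified allele. The protocol given for every sample, mouse included, names rat eyes. The labels do not say that each library came from a separate animal, so p-values measure only the spread between libraries, and that spread may be technical. Strain and annotation change with the species and cannot be told apart from it, nor can any difference in library preparation between the tables.

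In neurons the shared precursor of miR-132 and miR-212 is transcribed under the control of the factor CREB when activity, light or neurotrophins raise calcium and cAMP signals. The hairpins are cut by Drosha and Dicer, and 1 arm of each duplex is usually kept by an Argonaute protein while the other is degraded. Bases 2 to 8 of the kept arm, the seed, pair with target messenger RNAs. Known targets of miR-132-3p, such as p250GAP, link it to the growth of dendrites and spines, and it is also made in the endothelium of growing vessels.

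RefSeq sequences (mouse, GRCm38.p6) were found for all 4 arms and are shown because the arms differ in what they can pair with. The seed is in capitals.
miR-132-3p: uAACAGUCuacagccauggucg
miR-212-3p: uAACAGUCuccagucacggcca
miR-132-5p: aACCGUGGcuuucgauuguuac
miR-212-5p: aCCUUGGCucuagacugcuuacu
The 3p arms had the same seed, AACAGUC, and were identical at 17 of 22 positions. Counted from the 5′ end and with the base of miR-132-3p first, they differed by A10C, C14U, U17C, U20C and G22A, all outside the seed. The 5p arms had different seeds, ACCGUGG and CCUUGGC. No other mature mouse miRNA in the RefSeq table carried any of the 3 seeds, so the names that share AACAGUC are miR-132-3p and miR-212-3p. Both 3p arms begin with U and both 5p arms with A.

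The hairpins lie on the plus strand in intron 1 of the noncoding gene 1700016P03Rik (GENCODE M21, GRCm38), with 203 bases between them. They are printed with the mature arms in capitals and lie at chr11:75173388-75173478 for Mir212 and chr11:75173682-75173747 for Mir132.
Mir212: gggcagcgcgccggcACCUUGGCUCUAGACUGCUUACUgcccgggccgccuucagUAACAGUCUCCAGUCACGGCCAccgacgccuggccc
Mir132: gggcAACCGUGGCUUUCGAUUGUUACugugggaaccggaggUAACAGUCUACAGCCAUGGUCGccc
In the predicted fold of lowest energy (RNAfold), the first 4 bases of both 3p arms were paired. Of the first 4 bases of the 5p arms, 2 were paired in miR-212-5p and 3 in miR-132-5p. These are the mouse sequences; rat values were joined by name.

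The libraries held 24169628 to 30514632 counts, and the labelled tissue was checked with the retinal miRNAs miR-183-5p, miR-182-5p, miR-96-5p, miR-124-3p, miR-9-5p and miR-181a-5p, which together reached 529566 to 554593 CPM (counts scaled to the same total in every library) in mouse and 472451 to 548928 CPM in rat, where rat names that differ in a letter or lack the arm were accepted, here and in the next lists. Other tissues were looked for with 6 lists of cell type miRNAs, and no listed miRNA was at 0 in all libraries of a species. Their summed levels in mouse and rat, from the lowest to the highest library, were 13778 to 16134 and 24513 to 30822 CPM for pigment epithelium and 4270 to 5103 and 7566 to 8010 CPM for vascular and mesenchymal cells. They were 104 to 110 and 162 to 295 CPM for red blood cells, 47.0 to 53.0 and 39.3 to 70.2 CPM for leukocytes and microglia, 442 to 1366 and 1240 to 9433 CPM for cornea, lens and epithelium, and 642 to 883 and 44.3 to 66.9 CPM for muscle. Several of these sums differed between the species without overlap, and their part in the differences below was not tested. A sum can follow its most abundant member while other members of the list differ the other way. No difference in tissue content between the species was therefore read from the sums. Rat library r1 stood apart from r2 and r4: the lens and cornea miRNA miR-184 had 226444 counts in r1 against 44542 and 31551. The factor by which TMM (trimmed mean of M values, which corrects for a few abundant names) rescaled each library was 0.806 for r1, 1.29 for r2, 1.32 for r4 and 0.864 to 0.967 for mouse. Test results are therefore given with and without r1 where it moves them.

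All 4 arms were detected in every library, and their order was the same in all 6: miR-132-3p first, then miR-212-5p, miR-132-5p and, far below, miR-212-3p. Levels of the arms are first given as CPM of all counts in a species' table. Each name is a mature miRNA of 22 or 23 bases, shorter than the 50-base reads, so no scaling by length was applied. The most abundant member, miR-132-3p, had 12050, 12679 and 12310 counts in mouse libraries m1, m3 and m4 and 7411, 8572 and 9734 counts in rat libraries r1, r2 and r4. That is 428 CPM ± 11.3 in mouse and 330 CPM ± 20.7 in rat (n = 3 each, SD), ranks 86 to 88 among mouse names and 85 to 100 among rat names. All rat libraries lay below all mouse libraries. Such separation was common after the scaling used further below, where 59.8% of all tested names had no overlap. Of all tested names, 30.4% had none and were lower in rat. For CPM of all counts, used here and for the next arms, that share was not computed.

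The next member, miR-212-5p, had 7083, 7532 and 7541 counts in mouse and 2905, 4262 and 4650 in rat, or 256 CPM ± 10.5 and 151 CPM ± 26.9 (n = 3 each, SD). The species did not overlap, and r1 was the lowest library. The partner arm of miR-132, miR-132-5p, had 4499, 5559 and 5031 counts in mouse and 2430, 3582 and 4057 in rat, or 174 CPM ± 11.0 and 129 CPM ± 24.4 (n = 3 each, SD). Here too every rat library was below every mouse library. In mouse miR-212-5p and miR-132-5p were separated by more than their spread. In rat their ranges overlapped, from 120 to 168 CPM for miR-212-5p and from 101 to 144 CPM for miR-132-5p, although miR-212-5p was the higher in each library.

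The least abundant arm, miR-212-3p, had 430, 423 and 384 counts in mouse and 154, 335 and 497 in rat. Its level was 14.3 CPM ± 0.989 in mouse against 12.4 CPM ± 5.67 in rat (n = 3 each, SD). The rat libraries spread to both sides of the mouse ones, with r1 the lowest and r4 the highest of all 6 at 6.37 and 17.6 CPM. Together the 4 arms made up 873 CPM ± 20.5 in mouse (SD, n = 3) and 623 CPM ± 77.0 in rat (SD, n = 3). The rat libraries were at 534 (r1), 662 (r2) and 672 CPM (r4), below the lowest mouse library at 858 CPM.

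**Figure D1:**
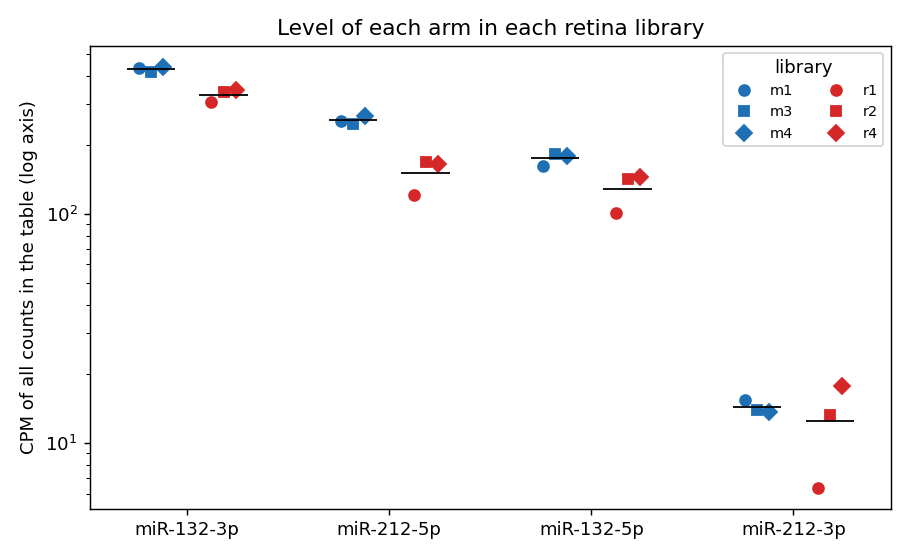
CPM of all counts (log axis) of each arm in the 3 mouse libraries (blue) and 3 rat libraries (red), with 1 symbol per library and a line at the species mean. The order of the arms is the same in all 6 libraries, and miR-212-3p is the arm for which the species overlap, from 6.37 to 17.6 CPM in rat.

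The hairpins gave most of their reads from opposite arms. Of the miR-132 count, the 3p arm held 71.1% ± 1.65 in mouse against 72.1% ± 2.74 in rat (n = 3 each, SD). Of the miR-212 count, the 5p arm held 94.7% ± 0.439 in mouse against 92.7% ± 2.31 in rat (n = 3 each, SD). The lowest single value for miR-132 was 69.5% in m3 (95% Wilson interval 68.8 to 70.2) and the lowest for miR-212 was 90.3% in r4 (89.5 to 91.1). These intervals cover counting error only. The arms that share a seed were therefore the major product of miR-132 and the minor product of miR-212.

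Reads with the seed AACAGUC came almost wholly from miR-132. Its share of the summed 3p arms was 96.8% ± 0.210 in mouse and 96.4% ± 1.42 in rat (n = 3 each, SD), and the sum itself was 443 CPM ± 11.6 and 343 CPM ± 26.2. With 17 of 22 positions shared, a read of one 3p arm could be given to the other if mismatches were allowed. How such reads were treated is not given in the sources used here, so the low level of miR-212-3p is uncertain. Over all 4 arms, miR-132-3p made up 49.1% ± 0.889 of the count in mouse and 53.3% ± 3.56 in rat, and miR-212-5p 29.3% ± 0.551 and 24.2% ± 1.5 (n = 3 each, SD). In rat the share of miR-132-3p was 57.4% in r1 against 51.2% in r2 and 51.4% in r4. The shares of miR-132-5p, 19.9% ± 1.26 and 20.5% ± 1.48, lay within the spread of each other. The share of miR-212-5p did not overlap between species, with a mouse minimum of 28.8% and a rat maximum of 25.4%. How often such shares separate for other miRNAs was not computed.

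**Figure D2:**
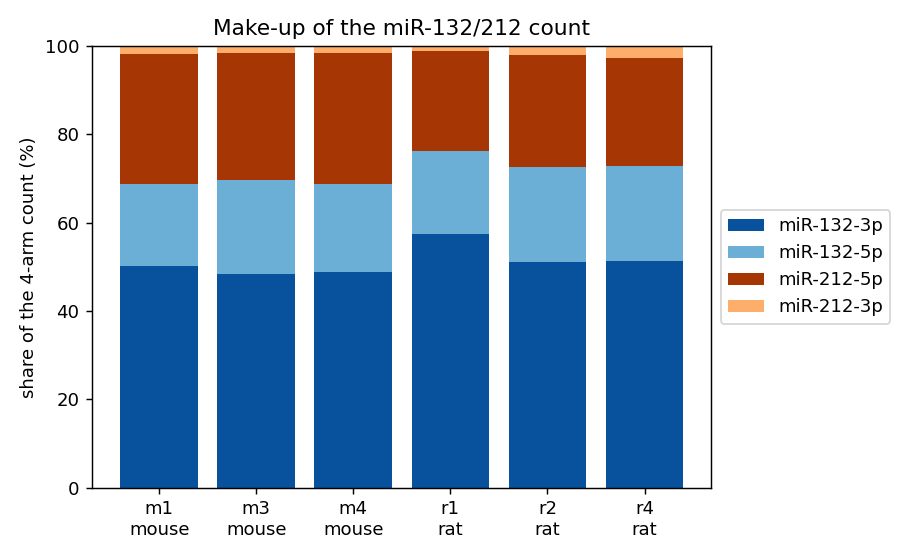
Share of each arm in the summed count of the 4 arms (%), 1 bar per library, with miR-132 in blue and miR-212 in orange and brown. In every bar miR-132-3p is the largest part, from 48.4% (m3) to 57.4% (r1), and miR-212-3p the smallest, from 1.19% (r1) to 2.62% (r4).

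The 2 hairpins differed in how one-sided they were. Arm balance was expressed as log2 of the 5p count over the 3p count (0.5 added to each). For miR-132 it was -1.42, -1.19 and -1.29 in mouse and -1.61, -1.26 and -1.26 in rat. For miR-212 it was 4.04, 4.15 and 4.29 in mouse and 4.23, 3.67 and 3.22 in rat. Among 169 hairpins with at least 50 counts in every library, the 5p arm led in 87 in mouse and 86 in rat, so neither direction is rare. Only 19 of the 169 in mouse and 23 in rat, miR-132 included, were as evenly balanced as miR-132 or more so. The miR-212 hairpin was not extreme, since 108 of 169 in each species, itself included, were at least as one-sided. Opposite arms in hairpins that share a seed were found for a minority of pairs: of 57 pairs with the same seed on the same arm, 8 had opposite leading arms in all 6 libraries, and of 19 pairs with the same 3p seed, 4 did. Pairs were sought among all 169 hairpins, wherever the compared arm of both was matched by name to the sequence table. Both arms were matched for 141 of the 169, and a hairpin can be in several pairs.

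Arm balance was not shown to differ between the species. For miR-132 the difference, rat minus mouse, was -0.08 ± 0.20 on the log2 scale (SE; limma adjusted p = 0.831; 95% interval -0.56 to 0.41). For miR-212 it was -0.45 ± 0.30 (adjusted p = 0.330; 95% interval -1.18 to 0.27). In the same limma fit 24.3% of hairpins were called at an adjusted p under 0.05, and 0 of these 2. The species' libraries did not overlap for 45.6% of hairpins, and overlapped for both of these. The result for miR-212 rested on r1, whose balance of 4.23 lay within the mouse values while r2 and r4 lay below them. Without r1 the difference was -0.72 ± 0.18 (limma adjusted p = 0.0409; 36% of all hairpins were called in that fit), a shift towards the 3p arm, and that of miR-132 was 0.04 ± 0.12 (adjusted p = 0.812). With all other alternatives tried, neither hairpin was called.

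**Figure D3:**
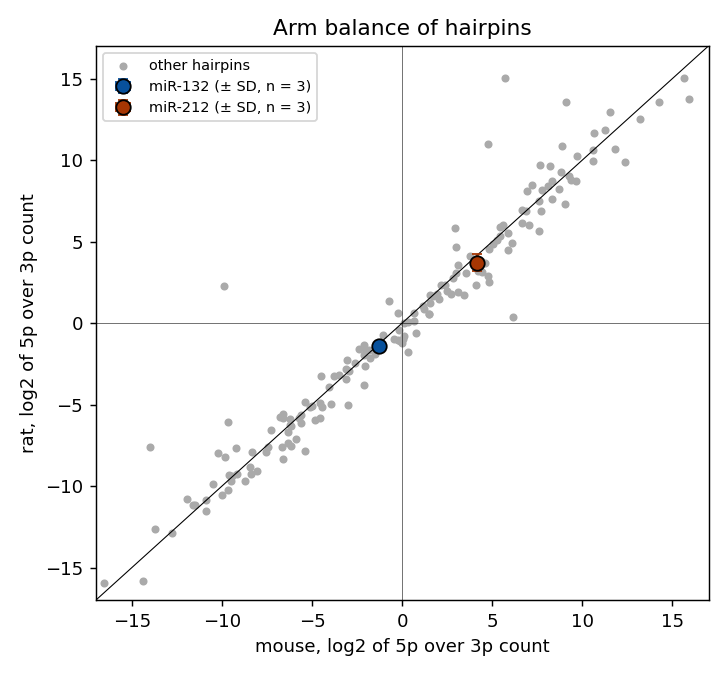
Log2 of the 5p over the 3p count in mouse (x axis) and rat (y axis), species means for 169 hairpins, with the line of equality; bars on the 2 named hairpins are the SD over 3 libraries. The miR-132 hairpin lies near the centre on the 3p side (-1.30 and -1.38) and miR-212 on the 5p side (4.16 and 3.71).

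With TMM scaling and all libraries, miR-132-5p, miR-132-3p and miR-212-5p were lower in rat than in mouse retina. The minor arm miR-212-3p was not called. These 3 of the 4 members were lower in rat at a Benjamini-Hochberg adjusted p under 0.05, where 24.4% of all tested names were called lower and 25.6% higher. Of the 3, miR-212-5p alone was called in every alternative tried. Abundance was compared after TMM scaling, as CPM of the 542 names listed for both species, with the quasi-likelihood test of edgeR over the 398 names that passed its filter on low counts, all 4 members among them. With library totals in place of TMM factors, 74.7% of all called names were higher in rat against 51.3% here. That scaling moved the median log2 difference of all tested names from 0.08 to 0.43, so members are also given relative to that median.

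The largest fall was that of miR-212-5p, the major arm of miR-212. Its scaled level was 410, 389 and 383 CPM in mouse and 234, 188 and 185 CPM in rat. Each rat library was well below each mouse library. The log2 difference was -0.96 ± 0.15 (SE; edgeR adjusted p = 0.000898; 95% interval -1.30 to -0.62), or 0.514-fold of the mouse level. The fall was called in all alternatives, library totals included, and lay at -1.04 relative to the median of all names.

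The partner arm of miR-132, miR-132-5p, also fell. Its scaled level was 261, 287 and 255 CPM in mouse and 196, 158 and 161 CPM in rat, again without overlap. The log2 difference was -0.64 ± 0.15 (edgeR adjusted p = 0.00709; 95% interval -0.98 to -0.30), and -0.72 relative to the median. With totals of the shared names it was -0.32 and not called (adjusted p = 0.177), while its distance from the median was then -0.76.

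For miR-132-3p, the arm best known in neurons, the scaled levels were 698, 654 and 625 CPM in mouse and 597, 378 and 387 CPM in rat. On this scale r1 came close to the mouse libraries, whereas r1 was the lowest of the 6 in CPM of all counts. The log2 difference was -0.54 ± 0.20 (edgeR adjusted p = 0.0494; 95% interval -0.99 to -0.09), just inside the threshold, and it was no longer called when r2, r4 or any 1 mouse library was left out (edgeR adjusted p between 0.0934 and 0.159). Nor was it called with library totals of the shared names (-0.26, edgeR adjusted p = 0.157), with RLE factors or with DESeq2. Without r1 it was -0.78 ± 0.07 (edgeR adjusted p = 4.19e-06), in a fit that called 70.9% of all names. Relative to the median of all names, the difference with all libraries was -0.62, and -0.69 with totals of the shared names.

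The minor arm miR-212-3p was not called. Its scaled level was 24.9, 21.8 and 19.5 CPM in mouse and 12.4, 14.8 and 19.8 CPM in rat, and r4 reached into the mouse range. The log2 difference was -0.49 ± 0.22 (edgeR adjusted p = 0.0917; 95% interval -0.98 to 0.00367). Without r4 it was -0.68 and called (edgeR adjusted p = 0.0440). Relative to the median of all names, the difference with all libraries was -0.57, and -0.53 with totals of the shared names.

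Of the 4 members, 3 had no overlap between the species' libraries on this scale, all of them lower in rat. Over all tested names 59.8% had no overlap, and 30.4% had none and were lower in rat. The median size of the difference over all 398 names was 0.63, so differences of 0.49 to 0.96 in size were of a common size in this comparison. In bulk retina, fewer cells that make a miRNA and less miRNA per cell cannot be told apart.

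**Figure D4:**
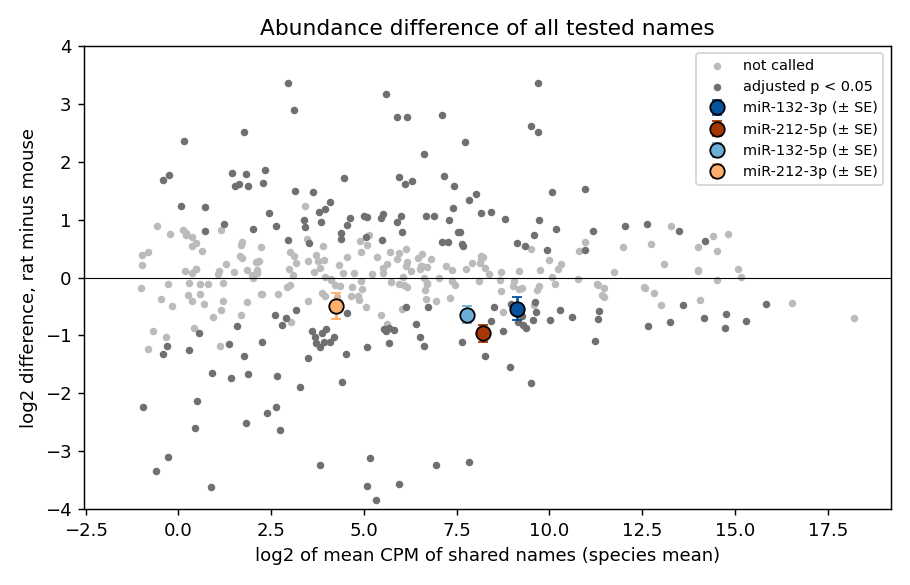
Log2 difference in abundance, rat minus mouse, against log2 of the mean scaled CPM for the tested names, with called names in dark grey, 20 names beyond a difference of 4 outside the frame, and the 4 members in colour with their SE. All 4 members lie below 0, from -0.49 (miR-212-3p, not called) to -0.96 (miR-212-5p), inside the cloud of the other names.

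Whether the arms of the transcript moved together was asked by ratios within each library, which need no scaling between libraries. Relative to miR-132-3p, miR-132-5p differed between the species by -0.08 ± 0.19 (SE, log2; limma adjusted p = 0.754) and miR-212-3p by 0.05 ± 0.34 (adjusted p = 0.896). The difference for miR-212-5p was -0.40 ± 0.18 (limma adjusted p = 0.105; 95% interval -0.82 to 0.02). Its log2 ratio to miR-132-3p was -0.77, -0.75 and -0.71 in mouse and -1.35, -1.01 and -1.07 in rat, so the species did not overlap, as for 57.9% of the other names. In this limma fit 48.1% of the other names were called and 7.81% were called lower, all of them sharing the counts of miR-132-3p, so that share moves with the error of 1 name. Among the 3 members 0 were called. Without r1, miR-212-5p was called lower (-0.30 ± 0.10, limma adjusted p = 0.0348) and miR-212-3p higher (0.42 ± 0.15, limma adjusted p = 0.0449) relative to miR-132-3p, with miR-132-5p at 0.04 ± 0.11 (adjusted p = 0.763). In that fit 78.4% of all other names were called, 68.2% higher and 10.2% lower, and the median log2 difference was 0.88. A call as higher, as for miR-212-3p, was thus common there. A call as lower, as for miR-212-5p, was less common.

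The balance between the hairpins was read from the ratio of their counts. Summed over both arms, the miR-132 count was 2.20, 2.29 and 2.19 times that of miR-212 in mouse and 3.22, 2.64 and 2.68 times in rat. All rat libraries were above all mouse libraries, also with r1 left aside. The ratio of the 5p arms was 0.635, 0.738 and 0.667 in mouse and 0.837, 0.840 and 0.872 in rat, with no overlap and with the rat libraries close together. Such separation was common in the other ratios within a library. It held for 45.6% of hairpins in arm balance and for 57.9% of the other names relative to miR-132-3p. Ratios between other hairpins were not computed. For the 3p arms the ratio was 28.0, 29.9 and 32.0 in mouse and 48.0, 25.6 and 19.6 in rat, where r1 lay above and the others below all mouse libraries. The exact two-sided permutation test gave p = 0.1 for the summed arms and for the 5p arms and 0.9 for the 3p arms. The value of 0.1 is the smallest that 3 against 3 libraries allow, and after Benjamini-Hochberg adjustment over the 3 ratios the values were 0.15, 0.15 and 0.9. No ratio could therefore pass a threshold of 0.05 in this exact test.

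**Figure D5:**
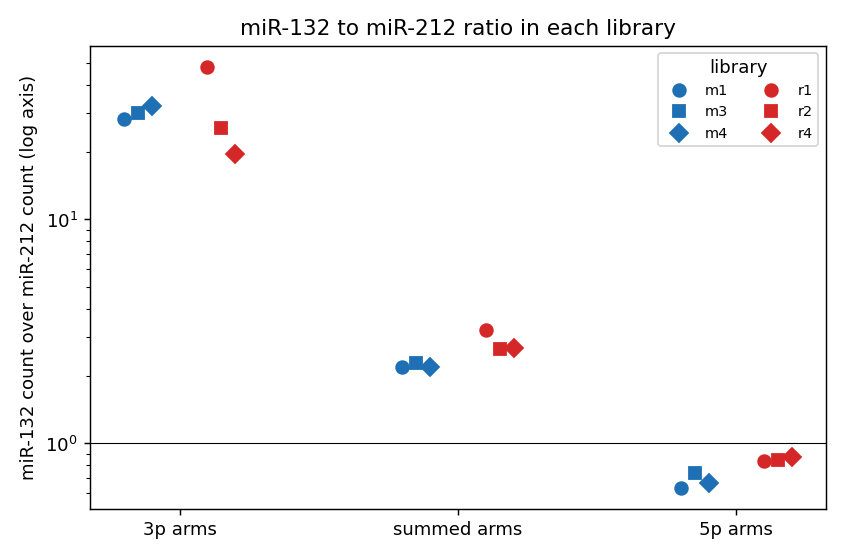
Count of miR-132 divided by that of miR-212 in each library (log axis) for the 3p arms, the summed arms and the 5p arms, with mouse in blue and rat in red. For the summed and the 5p arms every rat library lies above every mouse library (2.64 against 2.29 and 0.837 against 0.738 at the closest), while for the 3p arms the rat libraries spread from 19.6 to 48.0 around the mouse ones.

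The names whose levels followed the members most closely were found by the root mean square difference of log2 CPM over the 6 libraries, each profile centred on its own mean. Nearest to miR-132-3p were miR-532-5p (0.110), miR-674-3p (0.112) and miR-434-5p (0.135), with miR-132-5p in place 4 of 397 (0.139). Nearest to miR-132-5p were miR-434-5p (0.0520), miR-24-1-5p (0.0781) and miR-30d-5p (0.0941), with miR-132-3p in place 13. Nearest to miR-212-5p were miR-1843b-5p (0.0494), miR-149-5p (0.0737) and miR-541-5p (0.0835), with miR-132-5p in place 17 and miR-132-3p in place 26. Nearest to miR-212-3p were miR-210-3p (0.150), miR-34b-3p (0.171) and miR-1839-3p (0.185), with its partner arm miR-212-5p in place 109 of 397 (0.377). The median distance over all names was between 0.510 and 0.649. No member was thus among the 3 nearest names of another, and the profiles hold 6 libraries of 2 species, with r1 apart from the rest.

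Other miRNAs known to respond to neuronal activity or light were called in both directions. Of 22 names on the list, 17 were tested, and 4 were higher in rat, 3 lower and 10 not called. Not tested were miR-9-5p, miR-182-5p, miR-184-3p and miR-191-5p, which the rat table does not list under these exact names. The name miR-219a-5p is in both tables but did not pass the filter on low counts. The called ones made up 41.2% of the 17, against 50% of all tested names (25.6% higher and 24.4% lower). The median log2 difference of the 17 was -0.34, against 0.08 over all tested names. In falling order of level, the first 6 called were miR-181a-5p (-0.63), a regulator of synaptic receptors, miR-204-5p (0.63), abundant in pigment epithelium, miR-124-3p (-0.71), the general neuronal miRNA, miR-211-5p (0.80), a close relative of miR-204, miR-128-3p (-1.09), a neuronal miRNA, and miR-379-5p (1.53), of the imprinted Dlk1-Dio3 locus. The signs of these 6 held under every scaling tried, but with totals of the shared names 6 list members were higher and 1 lower, with miR-181a-5p and miR-124-3p not called, and the list median was 0.06. When any 1 mouse library was left out, miR-181a-5p and miR-204-5p were not called, and 3 members were higher and 2 or 3 lower. Without r1, 5 were higher and 7 lower, 70.6% of the 17, against 70.9% of all names in that fit. The pair miR-204-5p and miR-211-5p is also the marker list of pigment epithelium. The fall called for miR-132-3p, miR-132-5p and miR-212-5p after TMM scaling was thus not shared by the whole list.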

How the data were processed

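Per the labels' protocols, total RNA with miRNA was isolated from dissected retinas with a miRNeasy mini kit, and Illumina libraries were sequenced from 1 end (HiSeq-2500, 50 bases). The tables deposited by the authors, 1 per species, hold raw counts for each mature miRNA, with no normalization. The trimming, aligner, annotation release and handling of multiply matching reads were not given in the sources used here. Columns (m1, m3, m4, r1, r2, r4) were assigned to a species and not to a numbered sample; 0 columns were left unused. Names were joined without the species prefix (542 shared).

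Differences in abundance come from edgeR 4.0.16 under R 4.3.3 (TMM, filterByExpr, quasi-likelihood F test, species as the only term). Arm balance and ratios to miR-132-3p were tested with limma 3.58.1 on log2 ratios with a pseudocount of 0.5, arm balance in hairpins with at least 50 counts in every library. A call is a Benjamini-Hochberg adjusted p under 0.05. Hairpins were folded with RNAfold (ViennaRNA 2.7.2). The edgeR and limma tests were tested on simulated data. The planted changes were larger than the main differences of the members, so detection of smaller changes was not simulated. Alternatives were other scalings, DESeq2 1.42.0, filters, pseudocounts and leaving out each library. All 4 members are named, with the 3 nearest profiles of each and up to 6 called names of the activity and light list, by level. Members and lists were chosen with earlier results of these data known.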

Additional observations from a re-analysis of the deposited data

How the results depend on the processing

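Scaling decided part of the abundance result: with totals of the shared names the log2 differences were -0.32 (miR-132-5p, adjusted p = 0.177) and -0.26 (miR-132-3p, adjusted p = 0.157), and with totals of all names -0.44 and -0.38, none of them called by edgeR. The call of miR-132-3p was also lost with RLE factors (-0.51, adjusted p = 0.0769) and DESeq2 (-0.51, adjusted p = 0.0804). With 1 library left out, the differences ranged from -0.74 to -0.57 for miR-132-5p, -0.78 to -0.41 for miR-132-3p, -1.08 to -0.89 for miR-212-5p and -0.68 to -0.35 for miR-212-3p (called without r4 alone), with 153 to 293 names called in all. Arm balance ranged from -0.14 to 0.0399 (above 0 without r1) for miR-132 and from -0.72 to -0.21 for miR-212, with 26 to 63 hairpins called (41 with all libraries). Relative to miR-132-3p the ranges were -0.14 to 0.0399 for miR-132-5p, -0.47 to -0.30 for miR-212-5p and -0.23 to 0.42 for miR-212-3p, whose sign was below 0 without r2 (-0.03) or r4 (-0.23), with 143 to 323 names called (191 with all). The log2 ratio of the 3p arms ranged from -0.42 to 0.23, above 0 without r2 (0.03) or r4. Why leaving out r1 raises the number of calls was not tested. Pseudocounts, count minimums and a variance trend changed no member's call. No paired analysis was possible because the count columns do not carry the replicate numbers of the labels. Those numbers count libraries within a species, and the labels name no pairs between mouse and rat. At 154 counts in r1, miR-212-3p is the member that depth limits most.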
